A study of Mus musculus with 18 samples.

Results

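Levels of 10 epithelial junction genes were followed through 18 mouse cochlear libraries. The genes were taken by name from a list of the junctions that seal the reticular lamina, the apical surface of the organ of Corti: the claudins Cldn6, Cldn9, Cldn11 and Cldn14, the tricellular junction genes Marveld2 and Ildr1, the tight junction genes Ocln and Tjp1, and the cadherins Cdh1 and Cdh2. All 10 were found among the 47729 genes listed, and their rule uses names alone, though the list was drawn up with earlier results of these data known. RNA was measured in 9 groups of 2 libraries. Sorted LCP D10 and sorted LCP D0 were cells sorted from primary cochlear organoids, where LCP is the label's name for expanded cochlear progenitors and D counts days of differentiation. What the organoid cells were sorted on was not given in the sources used here. LCP D0, D2, D4 and D10 were unsorted organoids. Atoh1, Lgr5 and Sox2 sorts were cells sorted directly from cochlear sensory epithelium at postnatal day 2, called native here. Atoh1 marks hair cells, Lgr5 a subset of supporting cells, and Sox2 supporting cells more widely. The labels give no genotype or reporter allele for any group. They do describe a tamoxifen treatment of Sox2-CreER pups with a stabilised beta-catenin allele, and no sample title names it.

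Hair cells and supporting cells meet at their apical ends in a continuous belt of tight and adherens junctions that keeps endolymph, the potassium-rich fluid above the epithelium, apart from the fluid around the cell bodies. Claudins form the paracellular strands of the belt, occludin (Ocln) and the scaffold ZO-1 (Tjp1) join them, and tricellulin (Marveld2) and angulin-2 (Ildr1) close the corners where neighbouring cells meet. Loss of Cldn9, Cldn11, Cldn14, Marveld2, Ildr1 or Ocln causes deafness in mice. E-cadherin (Cdh1) and N-cadherin (Cdh2) hold adjacent cells together below the tight junction.

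On build mm10 in GENCODE M21, Cldn6 lies at chr17:23679249-23682446 on the plus strand and Cldn9 at chr17:23682584-23684026 on the minus strand, tail to tail with 137 bases between them. The library kit does not mark strand, but the annotated genes do not overlap and the gap is longer than a read of 75 bp. Across this gap, a read could be counted to the other gene only if its transcript ran past its annotated end. This was not tested. Cldn14 lies at chr16:93919031-94008837 on the minus strand and Cldn11 at chr3:31149920-31164324 on the plus strand. Ocln, at chr13:100496507-100552718, and Marveld2, at chr13:100595957-100616971, are neighbours on the minus strand of chromosome 13, 43238 bases apart. Ildr1 lies at chr16:36693978-36726804 on the plus strand, Tjp1 at chr7:65296165-65527781 on the minus strand and Cdh1 at chr8:106603351-106670246 on the plus strand.

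RefSeq promoter windows on GRCm38.p6 were matched for 7 of the 10 genes. The stretch of 250 bases before the start is shown for Cldn14, whose level separated native from cultured cells, and for the neighbours Ocln and Marveld2, whose levels varied together. All 3 are read on the minus strand. Capitals mark an E-box, CANNTG on either strand, the sequence that bHLH factors such as Atoh1 bind.
Cldn14, chr16:94008838-94009087: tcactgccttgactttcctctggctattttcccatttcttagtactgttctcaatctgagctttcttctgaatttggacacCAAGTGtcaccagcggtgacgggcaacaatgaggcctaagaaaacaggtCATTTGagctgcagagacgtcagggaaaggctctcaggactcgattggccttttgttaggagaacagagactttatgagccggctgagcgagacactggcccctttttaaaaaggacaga
Ocln, chr13:100552719-100552968: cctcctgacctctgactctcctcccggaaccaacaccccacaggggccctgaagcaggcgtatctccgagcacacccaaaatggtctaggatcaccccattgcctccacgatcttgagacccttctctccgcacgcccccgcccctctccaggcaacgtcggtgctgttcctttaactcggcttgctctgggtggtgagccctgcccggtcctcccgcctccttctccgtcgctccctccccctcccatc
Marveld2, chr13:100616972-100617221: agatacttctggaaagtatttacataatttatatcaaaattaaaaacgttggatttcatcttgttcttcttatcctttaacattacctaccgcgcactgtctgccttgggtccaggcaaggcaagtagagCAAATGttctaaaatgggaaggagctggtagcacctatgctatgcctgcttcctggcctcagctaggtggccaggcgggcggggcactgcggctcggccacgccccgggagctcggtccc
The Cldn14 window shown held 2 E-boxes, the Marveld2 window shown 1 and the Ocln window shown 0. RefSeq gives further starts for all 3 genes, with windows that overlap the annotated gene. The other Ocln window, chr13:100552499-100552748, held 2 E-boxes, the other Marveld2 window 1 and the other Cldn14 windows 2 and 1. Of 32851 promoter windows of the same length, 66.2% held at least 1. The motif AACCNGTT, bound by grainyhead-like factors and searched on both strands, was in none of these windows and in 1.79% of all windows.

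Values are TPM, a transcript abundance that divides by gene length, so levels can be set beside each other across genes. Each library sums to 1000000, and its depth is unknown. Between 14381 and 16713 genes reached 1 TPM per library. The summed level of 10 hair cell markers was 6520 and 5199 TPM in sorted LCP D10, against 34.0 and 28.3 TPM in sorted LCP D0, and 1961 and 2495 TPM in the Atoh1 sort, against 801 to 1375 TPM in the Lgr5 and Sox2 sorts. In each of the 4 groups of unsorted LCP, the replicate 1 library was higher than replicate 2 in 8 or 9 of the 9 junction genes that reached 1 TPM in at least 2 libraries. The same held for 8 or 9 of 9 genes in both sorted LCP groups and the Lgr5 sort, 7 in the Sox2 sort and 2 in the Atoh1 sort. The median replicate 1 minus replicate 2 difference of these genes was 0.65 to 1.61 on the log2 scale in unsorted LCP, where the median of all genes was 0.00 to 0.05, and -0.07 to 0.55 in the other 5 groups, where that of all genes was 0.00 to 0.24. The 4 unsorted replicate 1 libraries touch every result on unsorted cultures.

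Cldn9, a claudin of both hair cells and supporting cells, was the most abundant of the 10 junction genes in all 18 libraries. It ranged from 334 to 1648 TPM with a median of 583 TPM. Cldn6, a claudin of immature epithelia, ranged from 23.1 to 690.1 TPM with a median of 184 TPM. Cldn14, a claudin of the tight junctions around hair cells, ranged from 0.906 to 151 TPM with a median of 12.3 TPM. Cldn11, the claudin of the stria vascularis basal cells, stayed below 1 TPM in every library and was at 0 in 2, its highest value being 0.533 TPM in Atoh1 sort replicate 1. Cldn11 failed the filter on low values, so tests cover 9 of the 10 genes.

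**Figure D1:**
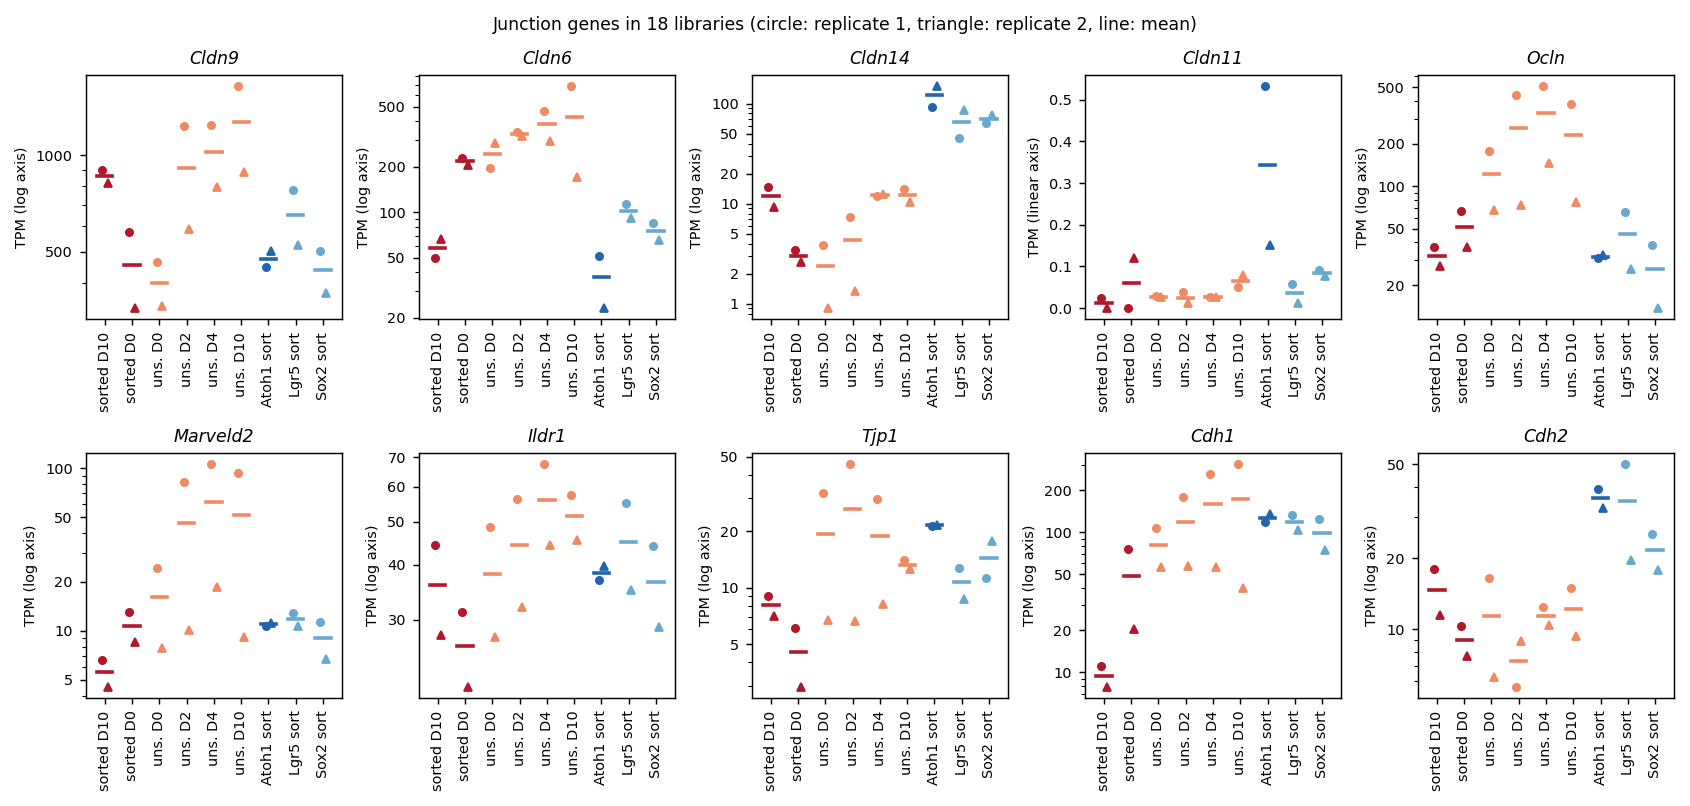
TPM of the 10 junction genes (log axes, a linear axis for Cldn11) in each library, with the sorted LCP groups on the left, unsorted LCP (uns.) by day in the middle and native sorts on the right; circles and triangles are replicates 1 and 2 and lines are means. Cldn14 lies between 45.3 and 151 TPM in the native libraries and at 14.6 TPM or less in every cultured one, and Cdh1 is lowest in sorted LCP D10, at 11.0 and 7.91 TPM.

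Cldn14 was the junction gene called lower in both comparisons of cultured with native cells. It measured 14.6 and 9.36 TPM in sorted LCP D10, against 93.6 and 151 TPM in the Atoh1 sort. It measured 3.46 and 2.60 TPM in sorted LCP D0, against 45.3 and 86.0 TPM in the Lgr5 sort. The 12 cultured libraries, at 0.906 to 14.6 TPM, did not overlap with the 6 native libraries, which was not counted over all genes. The difference on the log2(TPM + 1) scale was -3.24 ± 0.59 (SE) for sorted LCP D10 minus the Atoh1 sort (limma, adjusted p = 0.00463) and -3.99 ± 0.59 for sorted LCP D0 minus the Lgr5 sort (adjusted p = 0.00112). Both calls held in 4 of 4 fits that left out 1 library each, and the second was lost with only the compared groups in the fit (adjusted p = 0.0823). All 10 hair cell markers reached 1 TPM in both groups of the first comparison, and their median difference was 0.01 on the log2 scale. Of these markers 2 were called higher in sorted LCP D10 and 0 lower, and their summed level was higher there, as given above. Their part in the Cldn14 difference was not tested.

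Cdh1 was low in sorted LCP D10, where Cdh2 exceeded it. Cdh2 lies at chr18:16588877-16809246 on the minus strand and is overlapped by an antisense gene, Gm15485, which reached at most 3.40 TPM in any library. Cdh1 measured 11.0 and 7.91 TPM in sorted LCP D10, against 118 and 135 TPM in the Atoh1 sort. Cdh2 measured 17.9 and 11.5 TPM in sorted LCP D10, against 39.3 and 32.7 TPM in the Atoh1 sort. For both genes the groups did not overlap, and Cdh1 was lower in both sorted LCP D10 libraries than in any of the other 16. How many of all genes did the same was not counted, so this is a description only. Cdh1 fell by 3.62 on the log2 scale (SE 0.95, limma, adjusted p = 0.0301), while the Cdh2 difference was -1.26 ± 0.49 (adjusted p = 0.124). With replicates blocked Cdh2 was called as well (adjusted p = 0.0484). Without any 1 of the 4 libraries Cdh1 was no longer called, at differences of -3.84 to -3.41 and adjusted p of 0.0974 to 0.156. Cdh1 made up 38.1 and 40.8% of the Cdh1 and Cdh2 sum in sorted LCP D10, against 72.7 to 96.9% in the other 16 libraries.

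**Figure D2:**
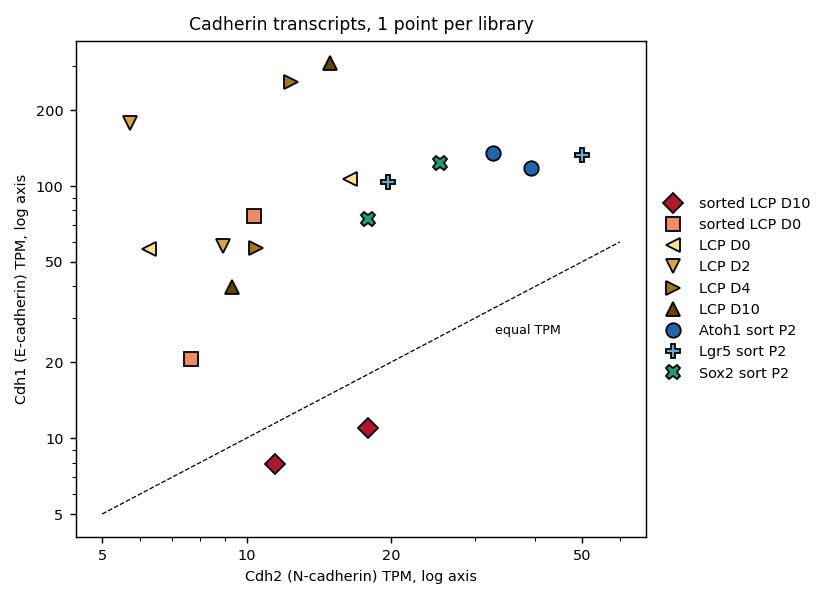
Cdh1 TPM against Cdh2 TPM (both log axes), 1 point per library and 2 per group; the dashed line marks equal TPM. Both sorted LCP D10 points lie below the line, with 38.1 and 40.8% of the sum from Cdh1, and the other 16 points lie above it.

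In sorted LCP D10 against the Atoh1 sort 2 of 9 junction genes tested were called, both lower, where 11.8% of all genes were called in either direction and 7.34% were called lower. The median difference of the 9 genes was -0.88 on the log2 scale, against -0.11 for all genes. Ocln, at 37.2 and 27.2 TPM in sorted LCP D10 against 30.8 and 32.4 TPM in the Atoh1 sort, had overlapping groups and a difference of 0.01 ± 0.97, an SE too wide to show equal levels. Ildr1 differed by -0.12 ± 0.40 and Cldn9 by 0.85 ± 0.42 (adjusted p = 0.899 and 0.226). With the sequencing date as a term 5 of 9 were called, Cldn9 higher (adjusted p = 0.0459) and Tjp1 (-1.32, adjusted p = 0.0247, against 0.352 without the term), Cdh2, Cdh1 and Cldn14 lower. The shares of all genes above are without that term, and those with it are not given. Scaling the libraries by median ratios moved the median of all genes by 0.21 in this comparison, less than either called difference. The scale factors themselves differed by 0.32 on the log2 scale. Of 12 housekeeping genes 3 were called higher in sorted LCP D10 and 0 lower, with a list median of 0.41. Markers of several other cell types were lower in sorted LCP D10 too. Of 7 markers tested of stria and other cochlear epithelium, 2 were called lower and 1 higher. Supporting cell markers summed to 95.7 and 194.5 TPM there, with 6 of 10 at 1 TPM or more, against 1007 and 471.9 TPM in the Atoh1 sort with 10 of 10. Mesenchyme markers summed to 52.9 and 34.6 TPM, with 3 and 2 of 8 at 1 TPM or more, against 198 and 144 TPM with 8 and 7 of 8, and Col3a1 was at 0 in sorted LCP D10 replicate 2. Erythroid markers summed to 0.712 and 0.352 TPM in sorted LCP D10, with 0 of 5 at 1 TPM or more and 3 and 4 at 0, against 192.5 and 281 TPM with 4 and 5 of 5, and 4 of 5 were called lower with a list median of -5.70. Endothelium markers summed to 4.43 and 6.04 TPM against 110 and 139 TPM, with 2 of 4 tested called lower, and 2 of 5 myelinating glia markers tested were called lower too. The part of these markers in the Cdh1, Cdh2 and Cldn14 differences was not tested. In such bulk samples, fewer cells of a type and less RNA per cell cannot be told apart.

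Among other junction lists in sorted LCP D10 against the Atoh1 sort, 2 of 17 other tight junction genes fell and 0 rose, with a list median of -0.43. Tjp3, which encodes ZO-3, fell by 1.82 (SE 0.35, adjusted p = 0.00647) and Jam2, an adhesion molecule of tight junctions, fell by 1.66 (SE 0.43, adjusted p = 0.0281). Of 15 adherens junction genes 1 fell, Lima1, which links cadherin complexes to actin (-1.96 ± 0.38, adjusted p = 0.00675). Pard6g, of the PAR polarity complex, was the only one of 14 polarity genes called (-2.92 ± 0.30, adjusted p = 0.000136). It measured 0.448 and 0.708 TPM in sorted LCP D10, against 14.2 and 8.36 TPM in the Atoh1 sort.

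At the progenitor end, 2 of 9 junction genes were called in sorted LCP D0 against the Lgr5 sort, both lower, where 11.0% of all genes were called and 7.11% were called lower. Besides Cldn14, Cdh2 was lower, at 10.4 and 7.66 TPM in sorted LCP D0 against 50.2 and 19.7 TPM in the Lgr5 sort. Its groups did not overlap, which was not counted over all genes. The Lgr5 libraries lay further apart from each other than the sorted LCP D0 libraries did. The difference was -1.71 ± 0.49 (limma, adjusted p = 0.0449). It was not called without Lgr5 sort replicate 1 (-1.06, adjusted p = 0.308), sorted LCP D0 replicate 1 (-1.91, adjusted p = 0.0773) or sorted LCP D0 replicate 2 (-1.52, adjusted p = 0.203). Cldn6, at 228 and 206 TPM in sorted LCP D0 against 113 and 91.3 TPM in the Lgr5 sort, was higher in both cultured libraries and missed the threshold (1.09 ± 0.54, adjusted p = 0.262). Ildr1 was called lower with the sequencing date as a term (-0.75, adjusted p = 0.0378). Hair cell markers were also lower in sorted LCP D0, with 9 of 10 called and 3 and 2 of 10 at 1 TPM or more, against 9 of 10 in both Lgr5 libraries. Pou4f3, Pvalb and Cabp2 were at 0 in sorted LCP D0 replicate 2, and no hair cell marker was at 0 in the Lgr5 sort. Cycling markers were higher, 5 of 5, summing to 257 and 288 TPM in sorted LCP D0 against 4.61 and 4.71 TPM in the Lgr5 sort. Of the markers tested, 4 of 7 mesenchyme markers were called lower and 1 higher, and 3 of 7 neuron and 3 of 10 supporting cell markers were called lower. The part of these markers in the lower Cldn14 and Cdh2 was not tested.

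Other cadherin and claudin genes moved in both directions in sorted LCP D0 against the Lgr5 sort. Of 11 other claudins tested 2 rose and 0 fell, with a list median of 0.46. Cldn10, an ion-permeable claudin, measured 3.53 and 15.4 TPM in sorted LCP D0 against 0.394 and 0.170 TPM in the Lgr5 sort (2.76 ± 0.60, adjusted p = 0.0115). Cldn8, a barrier claudin of kidney tubules, rose by 2.29 (SE 0.65, adjusted p = 0.042). Of 15 adherens junction genes 3 fell and 0 rose, among them Ctnnd2, a delta-catenin (-2.16 ± 0.53, adjusted p = 0.0206), and Cdh4, R-cadherin (-2.15 ± 0.50, adjusted p = 0.0166).

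In sorted cultures Cldn6 was lower at D10 than at D0, and Cldn9 and Cldn14 measured higher at D10 in both libraries. Cldn6 measured 49.7 and 66.2 TPM in sorted LCP D10, against 228 and 206 TPM in sorted LCP D0. Cldn9 measured 898 and 821 TPM in sorted LCP D10, against 578 and 334 TPM in sorted LCP D0. Cldn14 measured 14.6 and 9.36 TPM in sorted LCP D10, against 3.46 and 2.60 TPM in sorted LCP D0. None of these 3 claudins overlapped between the days, and the share of all genes without overlap was not counted. Cldn6 fell by 1.90 on the log2 scale (SE 0.54, limma, adjusted p = 0.0243). Cldn9 differed by 0.97 ± 0.42 (adjusted p = 0.121) and Cldn14 by 1.67 ± 0.59 (adjusted p = 0.0583), neither of which was called. With the sequencing date as a term 4 of 9 junction genes were called, Cldn6, Cldn9, Cdh1 and Cldn14 (adjusted p = 0.0262 for Cldn14). With replicates blocked, Cldn9 was called higher (adjusted p = 0.0194) and Cdh1, at 11.0 and 7.91 TPM in sorted LCP D10 against 76.3 and 20.5 TPM in sorted LCP D0, was called lower (-1.98, adjusted p = 0.0364, against 0.158 without the block). Cldn6 was not called in any of the 4 fits without 1 of the sorted libraries, at differences of -2.10 to -1.70 and adjusted p of 0.0619 to 0.14.

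Between sorted LCP D10 and D0, 1 of 9 junction genes was therefore called, where 24.0% of all genes were called in either direction and 10.7% were called lower. These shares are from the fit without block or date term. With the block 3 of 9 were called, and the shares of all genes with the block or the term are not given. The members' median was 0.43, against 0.02 for all genes. Cldn9 supplied 66.7 and 59.3% of the TPM summed over 23 claudins in sorted LCP D10, against 35.9 and 22.0% in sorted LCP D0. Its share was 54.8 and 63.7% in the Atoh1 sort, 46.7 to 49.3% in the Lgr5 and Sox2 sorts and 26.7 to 49.7% in unsorted LCP. The ratio of Cldn9 to Cldn6 was 18.1 and 12.4 in sorted LCP D10, 8.74 and 21.8 in the Atoh1 sort, 5.64 to 6.87 in the Lgr5 and Sox2 sorts, and 1.18 to 5.18 in the other 10 cultured libraries. Cldn14 supplied 11.4 and 19.1% of claudin TPM in the Atoh1 sort, and at most 1.08% in any cultured library.

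**Figure D3:**
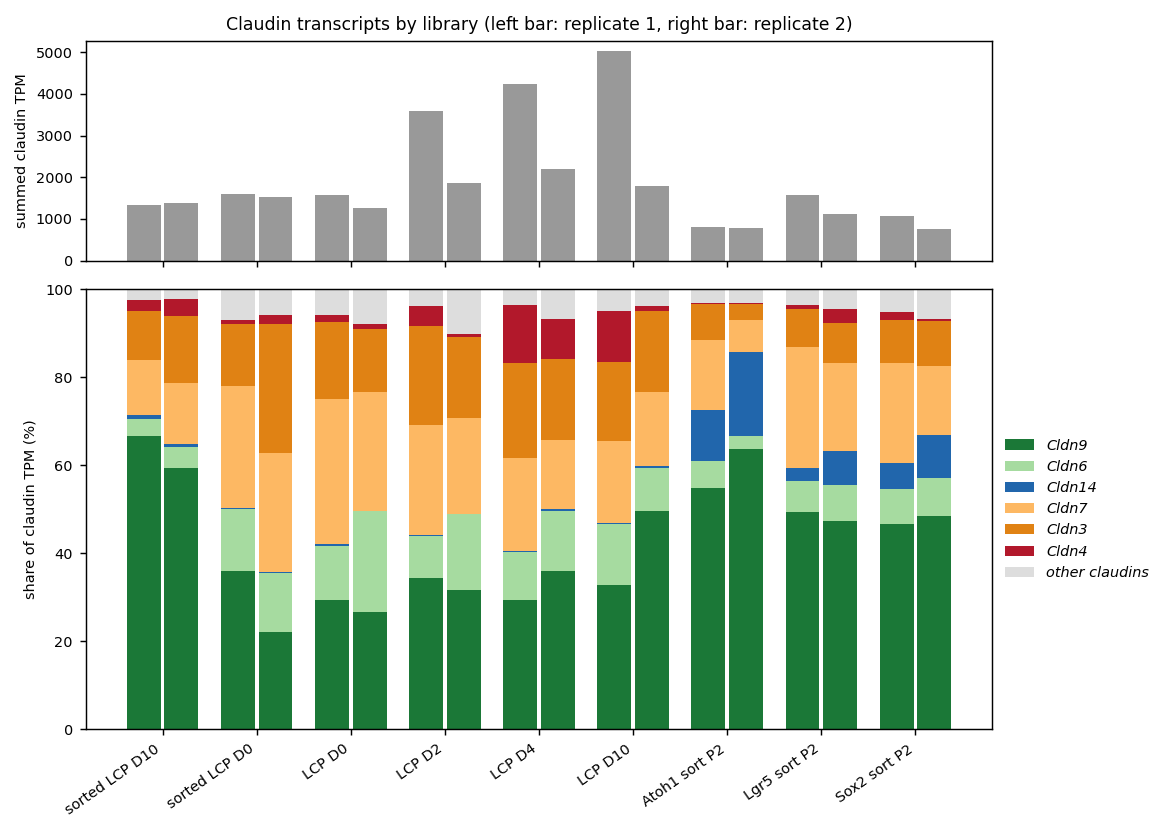
Top, TPM summed over 23 claudins; bottom, share of that sum (%) taken by 6 claudins and by the rest, for each library, with replicate 1 left and replicate 2 right in each group. Cldn9 takes 66.7 and 59.3% in sorted LCP D10 and 35.9 and 22.0% in sorted LCP D0, and Cldn14 takes 2.87 to 19.1% in the native sorts and at most 1.08% in culture.

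Other junction genes were lower or higher in sorted LCP D10 than in sorted LCP D0. Of 10 desmosome genes 4 fell and 0 rose, with a median of -0.93. Pkp3, the plaque protein plakophilin-3, measured 4.92 and 13.1 TPM in sorted LCP D10 against 99.3 and 77.8 TPM in sorted LCP D0 (-3.28 ± 0.42, adjusted p = 0.000315), and Dsg2, a desmosomal cadherin, fell by 2.20 (SE 0.40, adjusted p = 0.00254). Of 11 other claudins 2 fell and 0 rose, Cldn8 at -3.67 ± 0.65 (adjusted p = 0.00202) and Cldn10 at -2.74 ± 0.60 (adjusted p = 0.00658). The most abundant other claudin, Cldn7, was not called, at -1.23 ± 0.66 (adjusted p = 0.201). Of 17 other tight junction genes 4 fell and 1 rose. Tjap1, a tight junction associated protein also known from the Golgi, measured 208 and 137 TPM in sorted LCP D10 against 13.8 and 10.2 TPM in sorted LCP D0 (3.72 ± 0.44, adjusted p = 0.00023). Marveld1, of the same MARVEL domain family as Ocln and Marveld2, fell by 2.08 (SE 0.40, adjusted p = 0.00316).

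Cadherin genes outside the 10 junction genes differed in direction over the same days. Of 15 adherens junction genes 2 rose and 2 fell. Cdh4, R-cadherin, measured 97.4 and 67.1 TPM in sorted LCP D10 against 26.1 and 6.47 TPM in sorted LCP D0 (2.53 ± 0.50, adjusted p = 0.00389). Cdh3, P-cadherin, measured 0.357 and 0.918 TPM in sorted LCP D10 against 10.5 and 7.88 TPM in sorted LCP D0 (-2.65 ± 0.47, adjusted p = 0.00202). Both genes had days that did not overlap, which was not counted over all genes. Of 12 epithelial regulators 4 fell and 1 rose: the splicing factors Esrp2 (-2.12 ± 0.58, adjusted p = 0.0194) and Esrp1 (-2.03 ± 0.58, adjusted p = 0.0246), Grhl2 and Epcam fell, and Rab25 rose by 0.91 (SE 0.29, adjusted p = 0.0376). Of 6 mesenchymal transition genes tested 3 fell and 1 rose, with Vim, which encodes vimentin, at -3.00 ± 0.55 (adjusted p = 0.00259) and Zeb1, a repressor of Cdh1, at 1.94 ± 0.37 (adjusted p = 0.00293). Zeb1 measured 4.98 and 1.69 TPM in sorted LCP D10 against 0.0716 and 0.0239 TPM in sorted LCP D0. Hair cell markers rose together in this comparison, 10 of 10. Cycling markers fell, 5 of 5, summing to 4.11 and 2.40 TPM in sorted LCP D10 against 257 and 288 TPM in sorted LCP D0. Supporting cell markers fell in 3 of 10, and of the markers tested 2 of 4 endothelium markers fell and 3 of 7 neuron markers rose. The part of this change in the make-up of the libraries in the junction gene differences was not tested.

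**Figure D4:**
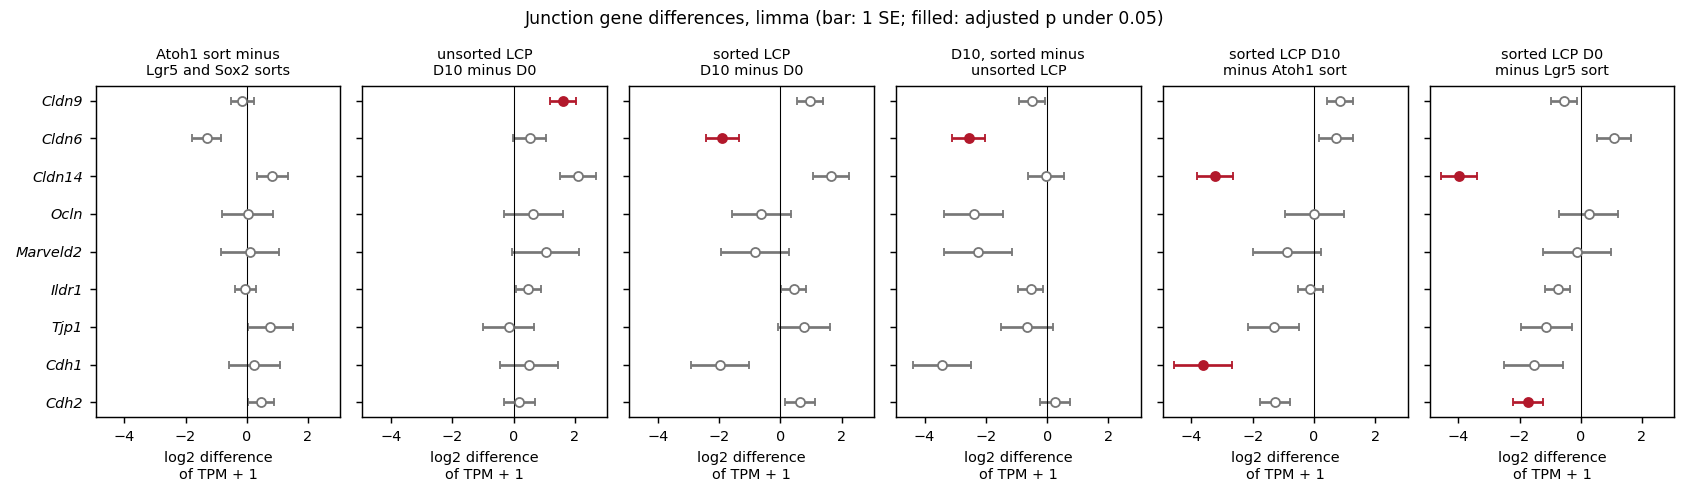
Difference on the log2(TPM + 1) scale of 9 junction genes in 6 comparisons, from 1 limma fit of all 18 libraries; bars are 1 SE and filled red points have an adjusted p under 0.05. Cldn14 is called lower in both comparisons of cultured with native cells, at -3.24 and -3.99, and no gene is called between native sorts.

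In unsorted cultures Cldn9 rose by D10. Its 2 libraries measured 464 and 338 TPM at D0, 1233 and 588 TPM at D2, 1245 and 797 TPM at D4, and 1648 and 885 TPM at D10. Every later library lay above both D0 libraries, which was not counted over all genes. The difference from D0 was 1.10 ± 0.42 at D2 (limma, adjusted p = 0.941), 1.33 ± 0.42 at D4 (adjusted p = 0.128) and 1.61 ± 0.42 at D10 (adjusted p = 0.0395). The D4 difference was called with replicates blocked (adjusted p = 0.0174). Cldn9 at D10 was not called without LCP D0 replicate 1 (1.83, adjusted p = 0.105), LCP D0 replicate 2 (1.38, adjusted p = 0.211) or LCP D10 replicate 1 (1.16, adjusted p = 0.199). Without the 4 replicate 1 libraries of unsorted LCP, an alternative chosen after seeing the data, it was 1.39 with an adjusted p of 0.157.

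Cldn14 measured higher at D4 and D10 than at D0 in both libraries, with 3.90 and 0.906 TPM at D0, 7.42 and 1.34 TPM at D2, 12.0 and 12.6 TPM at D4, and 14.1 and 10.5 TPM at D10. The D2 libraries overlapped with D0, and the D4 and D10 libraries did not, which was not counted over all genes. The difference from D0 was 2.12 ± 0.59 at D4 (adjusted p = 0.0774) and 2.11 ± 0.59 at D10 (adjusted p = 0.0503), so neither was called. D10 was called with replicates blocked (adjusted p = 0.0428), and both days were called with the sequencing date as a term (adjusted p = 0.0334 at D4 and 0.0175 at D10). Hair cell markers summed to 66.9 and 62.8 TPM at D0, 104 and 265.5 TPM at D2, 302 and 1363 TPM at D4, and 868 and 3083 TPM at D10. Cldn14 showed no such gap between replicates at D4 and D10. How Cldn14 relates to these markers was not tested.

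Counted over the 9 genes tested, 0 were called at D2, 0 at D4 and 1 at D10, where 0.0489, 3.39 and 7.39% of all genes were called in either direction and 3.05% were called higher at D10. At an unadjusted limma p under 0.05 the counts were 1, 2 and 2 of 9, against 921, 3028 and 4202 of all 20463 genes tested. With replicates blocked, 1 was called at D4 and 2 at D10, and with the sequencing date as a term 2 at each of these days. The shares of all genes above are without block or term, and those with them are not given. The members' medians were 0.47, 0.65 and 0.53 on the log2 scale, against -0.02, -0.06 and -0.08 for all genes. Few genes of the other junction lists moved by D10. Tjap1 rose by 1.94 (SE 0.44, adjusted p = 0.0212), and Cdh3, at 28.1 and 20.8 TPM at D0 and 4.76 and 2.03 TPM at D10, fell by 2.59 (SE 0.47, adjusted p = 0.00641). Pard6g fell by 1.92 (SE 0.30, adjusted p = 0.00321) and Tjp3 fell by 1.40 (SE 0.35, adjusted p = 0.0326).

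Ocln, Marveld2 and Cdh1 differed widely between the replicates of unsorted LCP. Ocln measured 178 and 67.7 TPM at D0, 439 and 74.1 TPM at D2, 514 and 146 TPM at D4, and 381 and 77.6 TPM at D10. Marveld2 measured 24.3 and 7.89 TPM at D0, 82.0 and 10.1 TPM at D2, 106 and 18.7 TPM at D4, and 93.2 and 9.11 TPM at D10. In both genes every replicate 1 library was higher than every replicate 2 library. Cdh1 measured 107 and 56.1 TPM at D0, 178 and 57.7 TPM at D2, 259 and 56.8 TPM at D4, and 307 and 39.7 TPM at D10. Tjp1 had 32.0 and 6.77 TPM at D0, and its replicates were close at D10, at 14.1 and 12.5 TPM. Ildr1 ranged from 21.2 to 67.6 TPM over all 18 libraries. Cdh1 differed from D0 at D10 by 0.51 ± 0.95, Ocln by 0.65 ± 0.97 and Marveld2 by 1.04 ± 1.11, and SEs of this size do not show that the days were equal.

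Sorted LCP D10 held less Cldn6 than unsorted LCP D10. Cldn6 measured 49.7 and 66.2 TPM in sorted LCP D10, against 690.1 and 171 TPM in unsorted LCP D10. Cdh1 measured 11.0 and 7.91 TPM in sorted LCP D10, against 307 and 39.7 TPM in unsorted LCP D10. Ocln measured 37.2 and 27.2 TPM in sorted LCP D10, against 381 and 77.6 TPM in unsorted LCP D10. The groups did not overlap for any of the 3, and in each the unsorted replicate 1 library was the highest. The share of all genes without overlap was not counted here either. Cldn6 fell by 2.56 (SE 0.54, limma, adjusted p = 0.0207). Cdh1 differed by -3.44 ± 0.95 (adjusted p = 0.0547), Ocln by -2.40 ± 0.97 (adjusted p = 0.157) and Marveld2 by -2.25 ± 1.11 (adjusted p = 0.243). Cldn9 and Cldn14 differed by -0.49 ± 0.42 and -0.05 ± 0.59.

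One of 9 junction genes was called in sorted against unsorted LCP D10, where 6.22% of all genes were called in either direction and 1.94% were called lower. With replicates blocked 3 of 9 were called, all lower, Cldn6 with Cdh1 (adjusted p = 0.00949) and Ocln (adjusted p = 0.0186). The share of all genes called with the block is not given. The Cldn6 call was lost without LCP D10 replicate 1 (-1.56, adjusted p = 0.166), sorted LCP D10 replicate 1 (-2.36, adjusted p = 0.131) or sorted LCP D10 replicate 2 (-2.76, adjusted p = 0.0771), and Cdh1 was called without LCP D10 replicate 2 (-4.90, adjusted p = 0.0119). The members' median was -0.67, against 0.00 for all genes. In the other junction, polarity and epithelial lists 7 genes were called, all lower. They were 0 of 11 other claudins tested, 1 of 17 other tight junction genes and 1 of 15 adherens junction genes. The rest were 3 of 10 desmosome genes, 1 of 14 polarity genes and 1 of 12 epithelial regulators. Lsr, the angulin-1 relative of Ildr1, measured 34.5 and 38.0 TPM in sorted LCP D10 against 118 and 94.1 TPM in unsorted LCP D10 (-1.52 ± 0.26, adjusted p = 0.0108). Ctnna1, the alpha-catenin that ties cadherins to actin, fell by 2.19 (SE 0.45, adjusted p = 0.0196), Pkp3 fell by 2.17 (SE 0.42, adjusted p = 0.015) and Epcam, an epithelial adhesion molecule, fell by 1.65 (SE 0.32, adjusted p = 0.0156). Hair cell markers had a list median of 1.10 and supporting cell markers of -0.63, with 0 of 10 called in each. Of 7 mesenchyme markers tested 1 was called lower. The part of these markers in the junction gene differences was not tested.

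At D0, sorted and unsorted LCP were not told apart by any junction gene. Of 9 genes tested 0 were called, where 0.0782% of all genes were called. At an unadjusted limma p under 0.05 there were 0 of 9, and 1948 of all 20463 genes tested. Differences ran from -1.60 ± 0.84 for Tjp1 to 0.39 ± 0.59 for Cldn14. Tjp1 measured 6.06 and 2.97 TPM in sorted LCP D0 against 32.0 and 6.77 TPM in unsorted LCP D0. Ocln measured 66.8 and 36.9 TPM in sorted LCP D0 against 178 and 67.7 TPM in unsorted LCP D0. Neither gene overlapped between these groups, though the nearest Ocln libraries lay at 66.8 and 67.7 TPM. How many of all genes did the same was not counted. The difference between the sorted and the unsorted change from D0 to D10 was tested as an interaction. Here too 0 of 9 genes were called by limma, where 0.205% of all genes were called. At an unadjusted p under 0.05 there was 1 of 9, and 2267 of all 20463 genes tested. That 1 junction gene was Cldn6, at -2.43 ± 0.76 (adjusted p = 0.29). It was called without LCP D10 replicate 2 (-3.43, adjusted p = 0.0214).

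No junction gene was called between native sorts. Cldn6 measured 51.3 and 23.1 TPM in the Atoh1 sort, against 113 and 91.3 TPM in the Lgr5 sort and 85.0 and 65.9 TPM in the Sox2 sort. Cldn14 measured 93.6 and 151 TPM in the Atoh1 sort, against 45.3 and 86.0 TPM in the Lgr5 sort and 64.4 and 76.5 TPM in the Sox2 sort. Tjp1 measured 21.4 and 21.7 TPM in the Atoh1 sort, against 12.8 and 8.68 TPM in the Lgr5 sort and 11.3 and 17.7 TPM in the Sox2 sort. In these 3 genes the Atoh1 libraries lay on 1 side of all 4 supporting cell libraries. How many of all genes did so was not counted. The Atoh1 sort differed from the average over both supporting cell sorts by -1.31 ± 0.47 for Cldn6 (limma, adjusted p = 0.272), by 0.84 ± 0.51 for Cldn14 (adjusted p = 0.569) and by 0.77 ± 0.73 for Tjp1 (adjusted p = 0.761). Of 9 genes 0 were called, where 0.821% of all genes were called. At an unadjusted p under 0.05 there was 1 of 9, Cldn6, and 2448 of all 20463 genes tested. The members' median was 0.11, against 0.03 for all genes. Cldn9, Cdh1, Cdh2, Ildr1, Marveld2 and Ocln differed by -0.15 to 0.45, with SEs of 0.35 to 0.96. All groups share 1 spread estimate, so the wide gaps between unsorted replicates also widen these SEs. Of 10 hair cell markers 9 or 10 reached 1 TPM in the Lgr5 and Sox2 sorts, and 10 of 10 supporting cell markers did so in the Atoh1 sort.

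Between the Lgr5 and Sox2 sorts, differences of the junction genes ran from -0.39 ± 0.84 for Tjp1 to 0.82 ± 0.97 for Ocln. Of the 9 genes 0 were called, where 0.557% of all genes were called. At an unadjusted limma p under 0.05 there were 0 of 9, and 1340 of all 20463 genes tested. Among 11 other claudins 1 was called in each native comparison, Cldn19, a claudin of kidney and of myelinating Schwann cells. It measured 0.0155 and 0.161 TPM in the Lgr5 sort against 5.27 and 11.7 TPM in the Sox2 sort (-3.04 ± 0.28, adjusted p = 0.000242), and 0.406 and 0.318 TPM in the Atoh1 sort. Of 5 myelinating glia markers tested, 4 were called lower in the Lgr5 sort than in the Sox2 sort and 0 higher, with a list median of -4.49. Myelinating glia markers summed to 487 and 204 TPM in the Lgr5 sort, with 4 and 5 of 6 at 1 TPM or more, and to 602 and 937 TPM in the Sox2 sort with 5 of 6. Their part in the Cldn19 difference was not tested.

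Over the 18 libraries, Marveld2 and Ocln had the highest correlation among the junction genes (Pearson r = 0.912 on the log2 scale), both being highest in the 4 unsorted replicate 1 libraries. Cldn14 and Cdh2 followed with r = 0.811, both being higher in native libraries, and Cldn6 and Ocln with 0.801. Cldn14 and Cldn6 ran opposite, at -0.68. Among 9898 named genes, the pattern of Cldn14 was most like Fcrlb (r = 0.957), Myo3a, a stereocilia myosin (0.956), and Kcnj13 (0.95). Cldn6 was most like Epcam (0.967), Ocln like Ctnnd1, which encodes p120-catenin (0.983), and Tjp1 like Mpp5, which encodes the polarity protein PALS1 (0.93). The libraries of a group share their source, so these values describe the 18 libraries and carry no p.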

How the data were processed

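RNA was measured in 18 mouse libraries. The authors deposited a TPM value for each gene of each library. Per the submitters' processing notes, STAR, Salmon, FastQC, DESeq2 and mm10 were used. Roles and versions are not stated there. Per the labels' protocols, each sample came from 2 ears of 1 pup, and cDNA was made from 2.5 ng RNA with kits that do not mark strand and read as 75 bp single ends. Depth cannot be had from TPM, so no counting error is given.

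Of 47729 genes, the 20463 with at least 1 TPM in at least 2 libraries were tested as log2(TPM + 1), a scale that understates changes of low genes. limma 3.58.1 (R 4.3.3) with a trend was fitted to all 18 libraries with 1 mean per group. There were 11 comparisons, each adjusted by Benjamini-Hochberg over all genes, with a threshold of 0.05. On simulated data, the median fitted size of the larger planted changes was close to the size planted. The simulated noise was independent between libraries. It therefore cannot show how calls behave under a shift between replicates that many genes share. Python 3.11.15 (matplotlib 3.10.9, numpy 2.4.6, pandas 2.3.3) was used for figures and tables.

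The 10 genes and the other lists were chosen with earlier results of these data known. Of the other lists, the rule names up to 2 called members per direction, by size of the difference, and the most abundant member not called; Cldn19 was kept for both native comparisons, and Grhl2 and Epcam were named after their values were seen. p-values measure the spread between 2 samples per group. Where groups are said not to overlap, the share of all genes that did the same was not counted, so the statement is a description only.

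The main fit has no replicate block. Blocked values stand beside results whose call they change. Shares of all genes called are from the main fit, so counts with the block or the date term have no like share beside them. The blocked fit pairs same-numbered libraries, which share a sequencing date in the labels within all comparisons except LCP D10 against D0, sorted against unsorted D0 and the interaction. In LCP D10 against D0 they share an extraction date instead. Deviations of same-numbered libraries correlated at -0.019 to 0.483 over 36 pairs of groups, with a median of 0.103. The labels give 7 libraries an extraction date later than their sequencing date. Alternatives were the replicate block, the sequencing date as a term, other filters, a pseudocount of 0.1, median-ratio scaling, only the compared groups in the fit, and each library left out.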

Additional observations from a re-analysis of the deposited data

How the results depend on the processing

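The 22 results checked here were log2 differences of single junction genes, a part of those printed. Of their 287 alternative values, 237 kept their direction and side of the threshold, 26 lost a call, 24 gained one, and 0 reversed. Only a called difference could lose its call. The count of junction genes called changed as follows, though not every change is listed. With no filter it was 0 for LCP D10 against D0 and 1 for sorted LCP D0 against the Lgr5 sort, and with a filter of 5 TPM it was 2 for LCP D10 against D0. With the replicate block, pairing same-numbered libraries, it was 1 for LCP D4 against D0, 2 for LCP D10 against D0, 3 for sorted LCP D10 against D0 and 3 for sorted against unsorted LCP D10. With sequencing date as a term these were 2, 2, 4 and 3, and 5 for sorted LCP D10 against the Atoh1 sort. With median-ratio scaling they were 1, 2, 3 and 2. The block also added Cdh2 for sorted LCP D10 against the Atoh1 sort (limma, adjusted p = 0.0484). The date term also added Ildr1 for sorted LCP D0 against the Lgr5 sort (limma, adjusted p = 0.0378). With only the compared groups fitted, 0 were called for LCP D10 against D0, sorted against unsorted LCP D10 and sorted LCP D0 against the Lgr5 sort. Without the 4 replicate 1 libraries of unsorted LCP, chosen after seeing the data, 0 were called for LCP D10 against D0 and for sorted against unsorted LCP D10. With 1 library left out, counts were 0 to 1 for LCP D10 against D0, 0 for sorted LCP D10 against D0, 0 to 2 for sorted against unsorted LCP D10, 1 for sorted LCP D10 against the Atoh1 sort, 1 to 2 for sorted LCP D0 against the Lgr5 sort and 0 to 1 for the interaction. Where a group is left with 1 library, it is assumed to vary like the others. The cause of these shifts was not tested. Groups of 2 and the unknown depth limit all values, low genes most.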
